A study of Homo sapiens with 8 samples.

Results

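Activin, TGF-beta and BMP ligands are secreted dimers of one growth factor superfamily. They bind type I and type II serine/threonine kinase receptors, which phosphorylate SMAD proteins. SMAD2 and SMAD3 carry the activin and TGF-beta signal, SMAD1, SMAD5 and SMAD9 carry the BMP signal, and SMAD4 is the partner that both branches share. In pancreatic cancer the pathway is known both for restraining epithelial growth and for promoting invasion and matrix production, and its genes are often mutated there.

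The genes described here are 10 of the 58870 genes in the deposited table: INHBA, INHBB, FST, FSTL3, GDF15, BMP2, BMP4, TGFB1, TGFB2 and TGFB3. They were listed by family, with results of these data known, and INHBA was chosen by its fall in the comparison reported here, so its values are a description with no test. The working name of the set is ligands, but FST and FSTL3 encode proteins that bind and neutralise activin. Of the 10 genes, 9 were found by the symbol in the table. TGFB1 was found by its Ensembl identifier (ENSG00000105329.9), because the table gives that row the symbol AC011462.1. All 10 passed the filter on low counts. Gene positions are those of GENCODE 44 on hg38.

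The study sequenced RNA from 8 samples of CFPAC-1 cells, a widely used line derived from a pancreatic ductal adenocarcinoma. In 4 samples the cells carried an empty vector, and in the other 4 they carried an ADRA2A transgene, which encodes the alpha-2A adrenergic receptor, a receptor for adrenaline and noradrenaline that lowers cyclic AMP. All were grown without drug for 72 hours in IMDM medium with 10% serum and antibiotics. The promoter of the transgene, and whether the cells were a clone or a pool or the replicates separate cultures, are not given in the sources used here, so p-values measure the spread between these samples, which may be technical. The samples are bulk cultures, so fewer cells that express a gene and less RNA per cell cannot be told apart.

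Library totals lay between 14427040 and 17528910 counts. ADRA2A had 0 counts in every empty-vector library and 112, 142, 154 and 172 counts in the ADRA2A libraries, as the labels say. The epithelial markers were abundant in all libraries, with a summed level of 12153 to 13209 CPM (counts per 1000000 counts of the TMM-scaled library) in the ADRA2A cells and 12214 to 12791 CPM in the empty-vector cells. CFTR was the only one of these 10 markers that was not tested, with at most 20 counts. Of the 9 tested 4 rose and 4 fell, among them MUC1 (log2 fold change 0.79), KRT7 (-0.43) and CDH1 (-0.33). The 10 fibroblast markers summed to 4.84 to 5.02 CPM in the empty-vector cells and 3.60 to 4.81 CPM in the ADRA2A cells, and none of the 3 tested passed the test. Of 9 immune and endothelial markers 4 were tested, CD68 (0.32) and PECAM1 (1.66) rose, KDR (-1.35) fell and CD3E was at 0 in all libraries. PECAM1 and KDR were low in both groups, with means of 0.773 and 1.23 CPM in the empty-vector cells. In the ADRA2A cells their means were 2.44 and 0.482 CPM. CD68 stood at 91.6 CPM in the empty-vector and 114 CPM in the ADRA2A cells. Over all genes tested 42.7% passed the same test, and nothing is read from the counts of markers that passed. The part of these markers in the results that follow was not tested.

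The promoters of INHBA, FST and TGFB2 are shown first, since INHBA and FST had the lowest fold changes of the set and TGFB2 was its most abundant member. Each line gives the 250 bases before the RefSeq start site (GRCh38.p14), 5′ to 3′ on the strand of the gene, with coordinates on that build. Capitals mark matches on either strand to the TATA box (TATAAA), to the CCAAT box, named for its letters, and to the AP-1 motif (TGANTCA).
INHBA, chr7:41703091-41703340, minus strand: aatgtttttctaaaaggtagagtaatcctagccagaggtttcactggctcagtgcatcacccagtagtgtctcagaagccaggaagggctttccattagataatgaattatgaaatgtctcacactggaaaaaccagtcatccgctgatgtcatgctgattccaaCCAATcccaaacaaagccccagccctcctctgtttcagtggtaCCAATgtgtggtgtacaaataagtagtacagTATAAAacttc
FST, chr5:53480379-53480628, plus strand: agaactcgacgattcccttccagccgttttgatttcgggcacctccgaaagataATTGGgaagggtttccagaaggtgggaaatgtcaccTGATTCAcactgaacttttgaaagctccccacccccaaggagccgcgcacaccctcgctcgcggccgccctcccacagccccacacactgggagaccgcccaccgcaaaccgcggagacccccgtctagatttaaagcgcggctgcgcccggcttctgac
TGFB2, chr1:218345086-218345335, plus strand: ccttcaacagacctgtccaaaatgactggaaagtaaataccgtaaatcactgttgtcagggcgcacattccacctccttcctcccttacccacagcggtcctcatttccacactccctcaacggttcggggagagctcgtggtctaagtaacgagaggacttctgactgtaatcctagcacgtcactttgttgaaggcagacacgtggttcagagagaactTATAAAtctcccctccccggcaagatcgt

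The INHBA window lies within the longer GENCODE span of the gene and held CCAAT 85 and 42 bases before the start and TATAAA 11 bases before it. The FST window held the AP-1 motif 160 bases before the start, a motif found in 6.57% of the 35116 RefSeq promoter windows of that length. CCAAT was found in 32.0% of those windows and TATAAA in 10.7%. RefSeq gave 12 windows for 9 of the 10 genes. The windows of GDF15 and BMP4 and a TGFB3 window also lie within the GENCODE spans of their genes. GENCODE marks 241 of the 250 bases of the GDF15 window as untranslated region. INHBA, FSTL3, GDF15, TGFB2 and TGFB3 held TATAAA in their window or windows, and INHBA, FST and GDF15 held CCAAT. The full cyclic AMP response element TGACGTCA, found in 1.65% of all windows, was in none of the 12. GGGCGG, the GC box, found in 42.6% of all windows on either strand, occurred in 6 of the 9 genes but not in INHBA, TGFB2 or TGFB3.

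Across the set, the activin subunit gene INHBA and the activin antagonist gene FST were far lower in the ADRA2A cells, BMP2 and INHBB were lower by less, GDF15 and TGFB2 were higher, and FSTL3, BMP4, TGFB1 and TGFB3 did not pass the test. Of the 9 genes other than INHBA, 5 passed edgeR's quasi-likelihood test at a Benjamini-Hochberg adjusted p of 0.05 over all 14785 genes tested, 3 lower and 2 higher. Over all genes tested 42.7% were called in this way, 21.6% higher and 21.1% lower. For 6 of the 10 genes every library of one group lay beyond every library of the other, 4 lower and 2 higher, against 39.2% of all genes tested. Nothing is read from these counts, since the list was drawn up with results of this comparison known. The median log2 fold change of the 10 genes was -0.14, beside 0.00 for all genes tested.

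**Figure D1:**
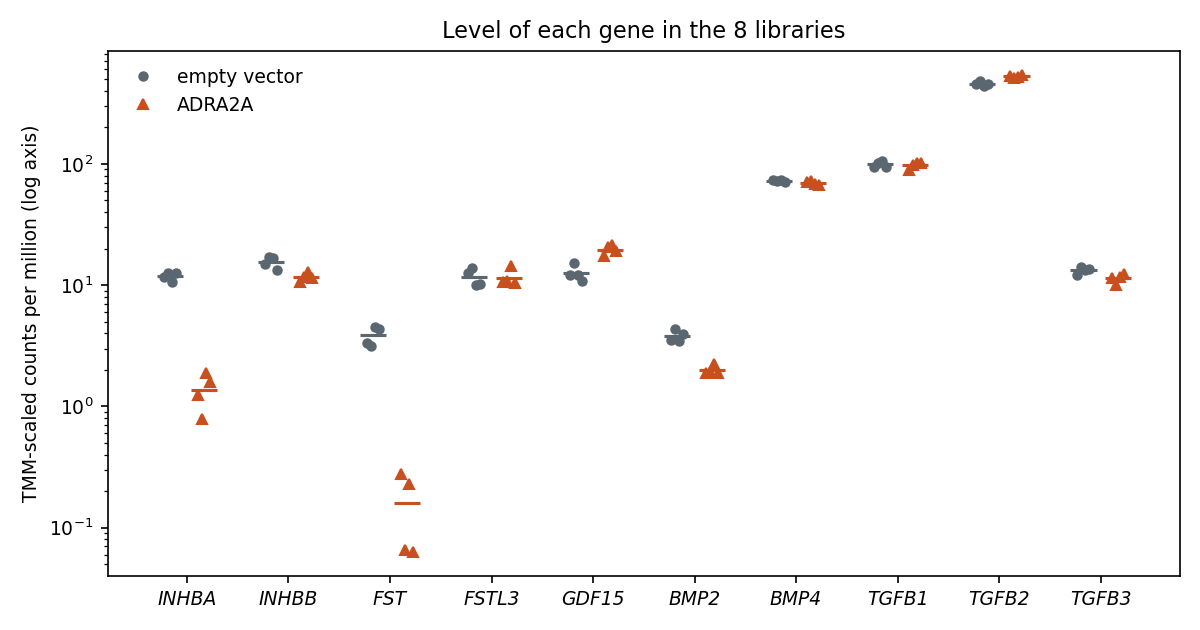
TMM-scaled CPM (log axis) of the 10 genes in each library, with circles for empty-vector and triangles for ADRA2A libraries and a line at each group's mean (n = 4). The ADRA2A libraries lie below all empty-vector libraries for INHBA, INHBB, FST and BMP2, and above them for GDF15 and TGFB2. The ranges of the groups overlap for FSTL3, BMP4, TGFB1 and TGFB3.

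INHBA encodes the beta A subunit of activin A, which is a dimer of 2 such subunits (ENSG00000122641.11, chr7:41667168-41705834). The empty-vector libraries held 199, 185, 183 and 192 counts of INHBA, or 11.7, 12.6, 10.6 and 12.6 CPM. The ADRA2A libraries held 18, 12, 33 and 25 counts, or 1.25, 0.792, 1.89 and 1.58 CPM. The lowest empty-vector library thus stood far above the highest ADRA2A library. The group means were 11.9 ± 0.919 and 1.38 ± 0.471 CPM (SD, n = 4 each), and INHBA had a log2 fold change of -3.08 ± 0.17 (SE). The relative spread of INHBA was larger in the ADRA2A cells, with a coefficient of variation of 34.2% against 7.76%, at a mean of fewer counts. INHBA-AS1, which overlaps INHBA on the opposite strand, had at most 5 counts in any library.

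INHBB encodes the beta B subunit, which forms activin B and pairs with beta A in activin AB (ENSG00000163083.6, chr2:120346136-120351803). Its level was 14.9, 17.2, 16.7 and 13.4 CPM in the empty-vector libraries and 10.7, 11.7, 12.8 and 11.5 CPM in the ADRA2A libraries. The groups did not overlap, but the lowest empty-vector library was close to the highest ADRA2A library. INHBB fell by 0.41 ± 0.10 on the log2 scale (SE; edgeR adjusted p = 0.00167). INHA, the gene of the alpha subunit that turns activins into inhibins, had between 3 and 14 counts and was not tested.

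Per length, INHBB was the more abundant of the 2 activin subunit genes in both groups. In TPM, which divides counts by gene length and then scales each library to a sum of 1000000, the level of INHBA was 5.70 ± 0.467 in the empty-vector and 0.665 ± 0.224 in the ADRA2A cells, and that of INHBB was 19.3 ± 1.93 and 14.5 ± 0.963 (SD, n = 4 each). INHBA made up 23.2%, 22.1%, 19.7% and 26.6% of the summed TPM of both genes in the empty-vector libraries. In the ADRA2A libraries its share was 4.33%, 2.56%, 5.39% and 5.05%. The summed TPM of INHBA and INHBB was 25.0 ± 1.75 in the empty-vector cells and 15.2 ± 1.11 in the ADRA2A cells (SD, n = 4 each). No ADRA2A library reached the lowest empty-vector sum. Because INHBA was chosen by its fall, these shares and sums are not tested.

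FST encodes follistatin, a secreted protein that wraps around activin and blocks its access to receptors (ENSG00000134363.12, chr5:53480626-53487134). It had 57, 46, 78 and 67 counts in the empty-vector libraries and 4, 1, 4 and 1 counts in the ADRA2A libraries. In the ADRA2A cells FST was therefore at or near the 3 counts that a count of 0 allows. Its level went from 3.84 ± 0.717 to 0.159 ± 0.110 CPM (SD, n = 4 each). FST fell by 4.53 ± 0.36 on the log2 scale (SE; edgeR adjusted p = 4.35e-09). FST passed the filter on low counts through the empty-vector libraries, where it was high. The size of the fold is imprecise: over the summed counts, 248 of 64422945 against 10 of 62914584, FST was 24.2-fold lower in the ADRA2A cells, with an exact 95% interval of 12.95 to 51.1 that covers counting error only. In the fits that tested it, which included those without each library in turn, its log2 fold change lay between -4.87 and -4.28.

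FSTL3 encodes a follistatin-like protein that also binds activin and the related ligand GDF11 (ENSG00000070404.10, chr19:676392-683392). Its level was 12.5, 13.7, 9.99 and 10.3 CPM in the empty-vector libraries and 10.7, 10.8, 14.3 and 10.3 CPM in the ADRA2A libraries. The groups overlapped, and ADRA2A replicate 3 stood above the other 3 libraries of its group. The log2 fold change of -0.01 ± 0.12 (SE) did not pass the test (edgeR adjusted p = 0.972), and it was -0.13 without that replicate.

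Per length, FSTL3 was the more abundant antagonist gene in both groups, with 15.2 ± 2.30 TPM in the empty-vector and 15.1 ± 2.31 TPM in the ADRA2A cells (SD, n = 4 each). FST stood at 5.56 ± 1.04 and 0.231 ± 0.162 TPM. FST made up 27.0% ± 6.60 of the summed TPM of both genes in the empty-vector cells and 1.47% ± 1.01 in the ADRA2A cells (SD, n = 4 each). The TPM of FST and FSTL3 together, divided by that of INHBA and INHBB together, was 0.878, 0.823, 0.760 and 0.874 in the empty-vector libraries. It was 1.04, 0.955, 1.13 and 0.905 in the ADRA2A libraries. This ratio holds INHBA in its denominator, the gene chosen by its fall, so nothing is read from the difference. With INHBB alone as the denominator, a setting added after the data were seen, the ratio was 1.14, 1.06, 0.947 and 1.19 in the empty-vector libraries. It was 1.09, 0.980, 1.20 and 0.953 in the ADRA2A libraries, and the groups overlapped.

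GDF15 encodes a stress-induced cytokine that acts on the brain through the receptor GFRAL (ENSG00000130513.6, chr19:18374731-18389176). Its level was 12.1, 15.1, 12.2 and 10.8 CPM in the empty-vector libraries and 17.2, 20.7, 21.4 and 19.2 CPM in the ADRA2A libraries. Every ADRA2A library was above every empty-vector library. GDF15 rose by 0.65 ± 0.10 on the log2 scale (SE; edgeR adjusted p = 2.64e-05), the highest fold change of the set. GFRAL itself was at 0 in all 8 libraries. GDF15 is a known target of the stress factors ATF4 and CHOP, and among 14 genes of that response, all tested, 1 rose and 5 fell, with a median log2 fold change of -0.13. That share is near the 42.7% called over all genes, so the count is not a result about these genes. ATF4 fell by 0.43, TRIB3 by 0.73 and STC2 by 0.70 on the log2 scale, and SESN2 was the gene that rose, by 0.33. DDIT3, which encodes CHOP, had a log2 fold change of -0.15 ± 0.08 (SE) that did not pass the test (edgeR adjusted p = 0.172). The part of these genes in the level of GDF15 was not tested.

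BMP2 encodes bone morphogenetic protein 2, a ligand of the BMP branch (ENSG00000125845.7, chr20:6767686-6780246). The empty-vector libraries held 60, 64, 60 and 60 counts of BMP2 and the ADRA2A libraries 27, 29, 39 and 30. The groups did not overlap. The level went from 3.82 ± 0.404 to 1.98 ± 0.171 CPM (SD, n = 4 each), and BMP2 fell by 0.94 ± 0.19 on the log2 scale (SE; edgeR adjusted p = 0.000499). Of the 20 tested neighbours of BMP2, between 5750393 and 11926609 on chromosome 20, 10 were called lower and 0 higher. Beside this count, 21.1% of all genes tested were called lower and 21.6% higher, and nothing is read from it. The 20 neighbours had a median log2 fold change of -0.49. That median was -0.39 over 40 neighbours, and the part of the region in the value of BMP2 was not tested.

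BMP4, the closest relative of BMP2, differed little between groups (ENSG00000125378.16, chr14:53949736-53958761). It stood at 73.0, 71.8, 73.8 and 70.8 CPM in the empty-vector libraries and 70.9, 72.5, 68.4 and 66.7 CPM in the ADRA2A libraries. The groups overlapped, and BMP4 did not pass the test at -0.06 ± 0.04 on the log2 scale (SE; edgeR adjusted p = 0.317). Per length BMP4 was far more abundant than BMP2, with 93.1 ± 1.56 against 4.29 ± 0.441 TPM in the empty-vector and 89.9 ± 3.49 against 2.23 ± 0.174 TPM in the ADRA2A cells (SD, n = 4 each). BMP2 thus made up 4.41% ± 0.501 of their summed TPM in the empty-vector cells and 2.43% ± 0.246 in the ADRA2A cells (SD, n = 4 each). These shares were 2.80% ± 0.323 and 1.53% ± 0.156 (SD, n = 4 each) when the longest transcript was taken as gene length, so their size depends on the length used.

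The 3 TGF-beta genes encode latent ligands that must be released from a propeptide before they can signal. TGFB2 was the most abundant gene of the set (ENSG00000092969.12, chr1:218345336-218444619). It stood at 457, 478, 438 and 458 CPM in the empty-vector libraries and 530, 514, 521 and 543 CPM in the ADRA2A libraries. The groups did not overlap, and TGFB2 rose by 0.20 ± 0.03 on the log2 scale (SE; edgeR adjusted p = 5.29e-05), or 15.2% of its mean. TGFB2-OT1, which lies within TGFB2 on the same strand, had 215 to 340 counts per library.

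TGFB1 (chr19:41301587-41353922) had 94.9, 102, 106 and 93.8 CPM in the empty-vector libraries and 88.4, 96.8, 102 and 102 CPM in the ADRA2A libraries. The groups overlapped, and the log2 fold change of -0.03 ± 0.05 (SE) did not pass the test (edgeR adjusted p = 0.689). Its span overlaps those of HNRNPUL1, CCDC97 and TMEM91 on the opposite strand, and the use of strand is not given in the sources used here, so reads in shared parts cannot be told apart. TGFB3 (ENSG00000119699.7, chr14:75958097-75983011) had 12.2, 14.2, 13.4 and 13.5 CPM in the empty-vector libraries and 11.4, 10.0, 11.6 and 12.4 CPM in the ADRA2A libraries. Only the highest ADRA2A library reached into the empty-vector range. The log2 fold change of TGFB3, -0.23 ± 0.09 (SE), missed the threshold (edgeR adjusted p = 0.0522). Over the 15 alternatives its adjusted p lay between 0.0341 and 0.161, under 0.05 in 3. TGFB3 passed without empty-vector replicate 1 (0.0341), without ADRA2A replicate 4 (0.0352) and with upper quartile factors (0.0374). Its span overlaps IFT43 on the opposite strand.

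**Figure D2:**
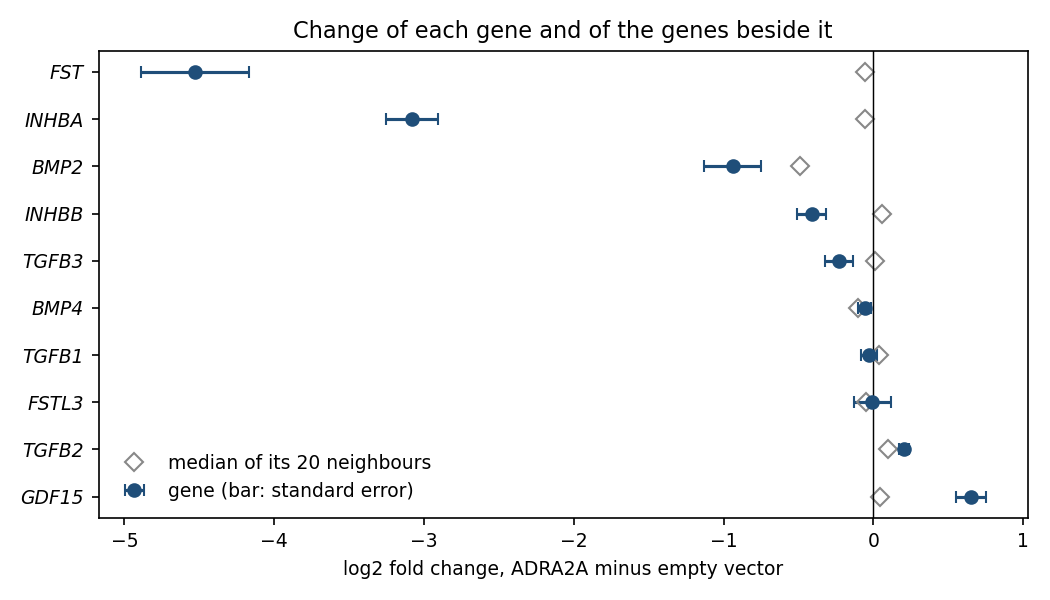
Log2 fold change of each gene (filled circle, bar for the standard error) and the median log2 fold change of its 20 tested chromosome neighbours (open diamond). FST was at -4.53 and INHBA at -3.08, with neighbour medians of -0.06 and -0.05, and the neighbours of BMP2 had a median of -0.49. INHBA was chosen by its fall, so its distance from its neighbours is a description. The part of the regions in these values was not tested.

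In the order of levels per length in the empty-vector cells, TGFB2 came first with 301 ± 11.2 TPM, followed by TGFB1 with 121 ± 5.96, BMP4, GDF15 with 24.0 ± 3.27, INHBB, FSTL3, TGFB3 with 10.2 ± 0.575, INHBA, FST and BMP2 (SD, n = 4 each). INHBA and FST differed by less than their spread. GDF15 stood apart from INHBB by more than the SD of either, as INHBB did from FSTL3. In the ADRA2A cells the order was TGFB2 with 349 ± 11.3 TPM, TGFB1 with 119 ± 7.02, BMP4, GDF15 with 37.6 ± 3.11, FSTL3, INHBB, TGFB3 with 8.70 ± 0.792, BMP2, INHBA and FST. FSTL3 and INHBB differed there by less than the spread of FSTL3. With the longest transcript as gene length in place of the union of exons, BMP4 came before TGFB1 in both groups. TGFB2 made up 69.6% ± 1.61 of the summed TPM of the TGF-beta genes in the empty-vector cells and 73.2% ± 1.25 in the ADRA2A cells (SD, n = 4 each).

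**Figure D3:**
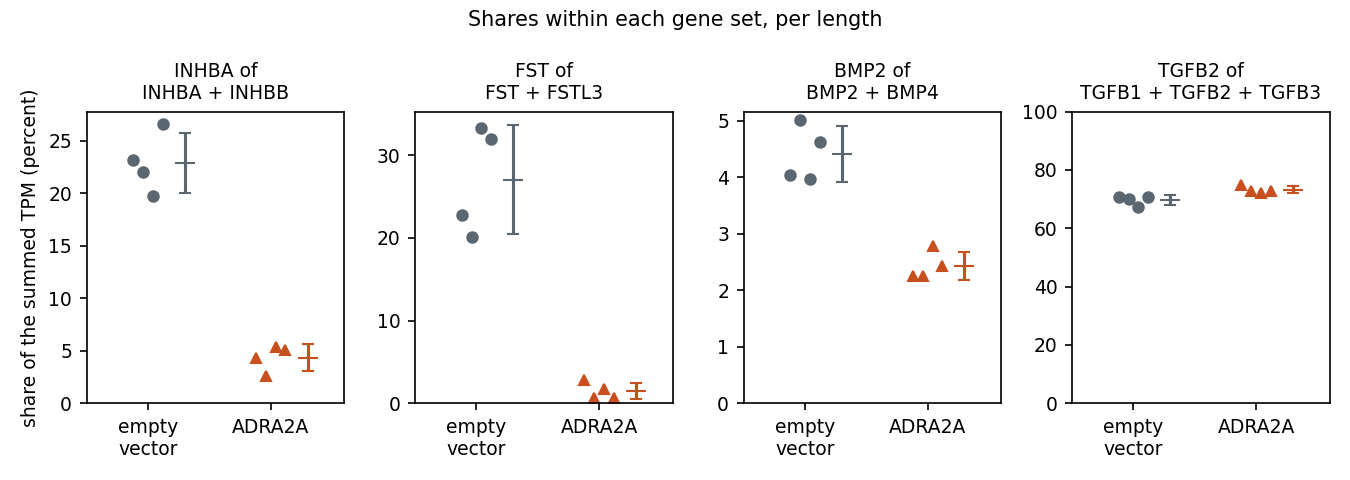
Share in percent of the summed TPM taken by INHBA, FST, BMP2 and TGFB2 within their own sets, per library (points), with mean and SD beside them (n = 4 per group). The shares of INHBA, FST and BMP2 are lower in all 4 ADRA2A libraries than in any empty-vector library, and that of TGFB2 is higher.

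The chromosome neighbours of the other genes were described in the same way, each by 20 tested genes. Those of INHBA, on chromosome 7, had a median log2 fold change of -0.05, with 1 called higher and 5 lower. Those of FST, on chromosome 5, had a median of -0.06, with 2 higher and 3 lower. Around INHBB, which fell, the median was 0.06, with 7 neighbours higher and 0 lower. Around TGFB2, which rose by 0.20, the median was 0.10, with 5 higher and 3 lower. Around GDF15 it was 0.04, with 4 higher and 4 lower. Around BMP4, itself at -0.06, the median was -0.10, with 4 higher, 8 lower and 16 of the 20 below 0. The medians were -0.05 around FSTL3, 0.04 around TGFB1 and 0.01 around TGFB3. Beside these counts, 21.6% of all genes tested were called higher and 21.1% lower, and nothing is read from the neighbour counts. Over the 8 libraries, the log2 CPM of 5 tested genes followed that of INHBA most closely by Pearson correlation. They were ACP5 (r = 0.996), THBS2 (0.995), LINC03061 (0.993), MCAM (0.992) and NUP54 (0.992). These values describe libraries that fall into the same 2 groups. ACP5, which encodes tartrate-resistant acid phosphatase, went from 2.08 ± 0.389 to 0.108 ± 0.0893 CPM, while MCAM, which encodes a cell adhesion molecule, stood at 23.5 ± 1.45 and 4.97 ± 1.03 CPM (SD, n = 4 each). Within the set, r with INHBA was 0.98 for BMP2, 0.97 for FST, 0.86 for INHBB, 0.85 for TGFB3, 0.46 for BMP4, 0.23 for TGFB1, 0.13 for FSTL3, -0.88 for GDF15 and -0.89 for TGFB2. Over all genes tested, 477 had an r above 0.95.

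The genes around the ligands in the pathway were taken from 7 lists of 103 genes. Of these 60 were tested, and 20 were called higher and 17 lower in the ADRA2A cells. That is 61.7% of those tested, beside 42.7% of all genes. The median log2 fold change of the 60 genes was 0.01. Nothing is read from the share called, since the lists were chosen with earlier results of these data known. The counts of each list that follow stand beside 21.6% called higher and 21.1% lower over all genes tested. The lists share BAMBI, LTBP2, SMAD6, SMAD7 and SMAD9, so those genes count under both of their lists.

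Among the receptors and co-receptors, 9 of 13 tested genes rose and 0 fell, with a median log2 fold change of 0.25. BAMBI, a decoy receptor that blunts signalling, rose from 28.0 ± 1.68 to 71.0 ± 2.21 CPM (SD, n = 4 each; log2 fold change 1.34 ± 0.05, SE; edgeR adjusted p = 1.63e-13). TGFBR3, the co-receptor betaglycan that presents TGF-beta 2 to its receptors, rose from 6.59 ± 0.580 to 19.2 ± 0.936 CPM (SD, n = 4 each; log2 fold change 1.53 ± 0.09, SE; edgeR adjusted p = 7.08e-11). ACVR1B, the type I receptor of activin, rose by 0.75 ± 0.06 on the log2 scale (SE; edgeR adjusted p = 4.55e-09). The activin type II receptor genes ACVR2A (0.24) and ACVR2B (0.15) did not pass the test.

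The SMAD genes differed little. SMAD2 (log2 fold change -0.04), SMAD3 (0.00), SMAD1 (-0.02), SMAD5 (0.00) and the inhibitory SMAD7 (-0.07) did not pass the test. SMAD6, the inhibitor of the BMP branch, had -0.12 ± 0.05 (SE; edgeR adjusted p = 0.048) with overlapping libraries, and over the 15 alternatives its adjusted p lay between 0.0277 and 0.172, under 0.05 in 6. SMAD4 had 0 counts in all 8 libraries, 127337529 counts in total, which allows up to 0.0236 CPM. ELAC1, a neighbour of SMAD4 on chromosome 18, was at 0 in every library too, while ME2 had 286 to 396 counts and MEX3C 570 to 822. These 3 neighbours were named after their values were seen. SMAD9 had at most 6 counts and was not tested.

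Of the other ligands of the superfamily, 5 of 25 were tested and 10 were at 0 in all libraries. BMP3 fell by 0.89 ± 0.19 on the log2 scale (SE; edgeR adjusted p = 0.00105) and BMP8B rose by 0.55 ± 0.12 (SE; edgeR adjusted p = 0.000806). GDF11 (-0.22), GDF9 (-0.96) and AMH (0.09) did not pass the test. Of 16 further antagonists 4 were tested, 1 rose and 2 fell. NOG, which encodes the BMP-binding protein noggin, went from 7.77 ± 0.908 to 2.39 ± 0.389 CPM (SD, n = 4 each) and fell by 1.71 ± 0.16 on the log2 scale (SE; edgeR adjusted p = 4.47e-08). TWSG1, which modulates BMP binding to chordin, fell by 0.56, and NBL1, a BMP antagonist of the DAN family, rose by 0.73. GREM1 and CHRD had at most 3 counts in any library.

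The genes of latency, activation and processing changed in both directions, with 4 of 13 tested genes higher and 5 lower and a median log2 fold change of 0.02. THBS1, a matrix protein that can release TGF-beta from its latent complex, went from 1119 ± 52.1 to 257 ± 8.46 CPM (SD, n = 4 each) and fell by 2.12 ± 0.04 on the log2 scale (SE; edgeR adjusted p = 4.92e-19). LTBP2, of the latent TGF-beta binding protein family, fell by 0.57. In that family LTBP1 also fell (log2 fold change -1.07), LTBP3 rose (0.56) and LTBP4 (0.16) did not pass the test. PCSK6, a proprotein convertase that can cut ligand precursors, rose by 1.88 ± 0.09 (SE; edgeR adjusted p = 3.31e-12). FURIN, the convertase best known for cutting TGF-beta, had a log2 fold change of 0.05 that did not pass the test.

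Of the TGF-beta and activin target genes 15 of 16 were tested, 3 rose and 9 fell, with a median log2 fold change of -0.25. COL4A1 and COL4A2, which encode basement membrane collagen chains, fell by 0.78 and 0.58 on the log2 scale. PMEPA1, a feedback inhibitor of TGF-beta signalling, went from 257 ± 9.37 to 173 ± 1.06 CPM (SD, n = 4 each) and fell by 0.58 ± 0.04 (SE; edgeR adjusted p = 9.21e-11). JUNB, SKIL and BHLHE40 were the targets that rose, by 0.64, 0.31 and 0.30. Of the BMP target genes 8 of 12 were tested, 3 rose and 1 fell, with a median log2 fold change of 0.15. ID2 rose by 0.56 ± 0.05 (SE; edgeR adjusted p = 2.11e-08), ID4 rose by 0.92 ± 0.20 (SE; edgeR adjusted p = 0.00102) and BAMBI was the third, while ID1 had 0.15 ± 0.06 (SE; edgeR adjusted p = 0.0597) and did not pass the test.

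**Figure D4:**
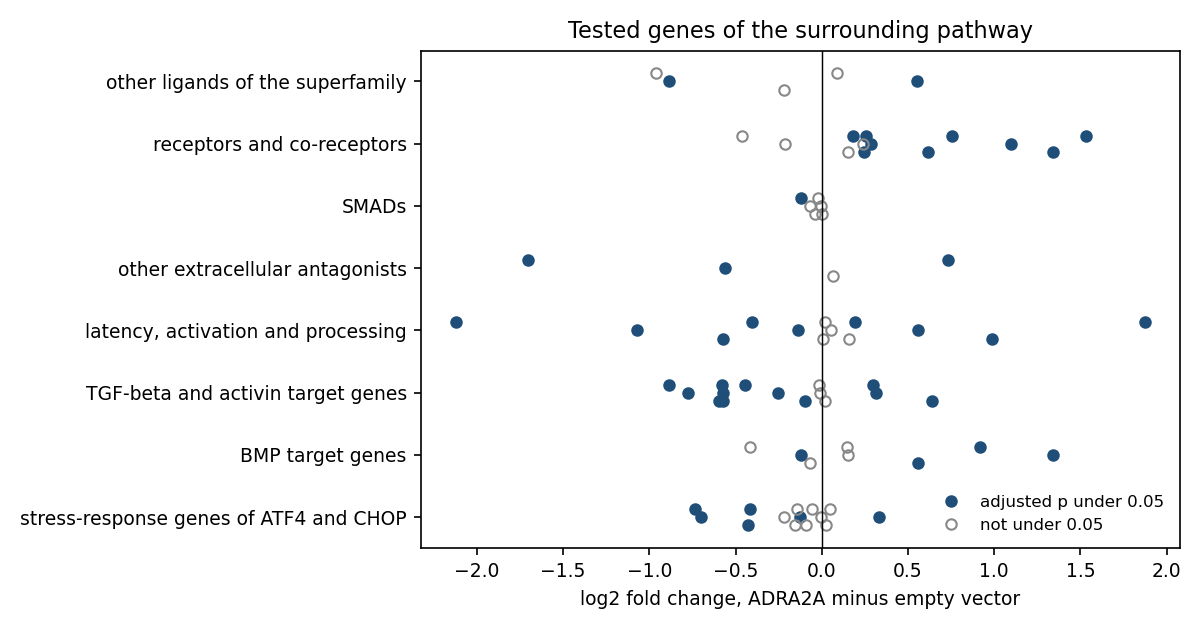
Log2 fold change of each tested gene in 8 lists, with filled circles for an adjusted p under 0.05 over all genes tested and open circles for the others. The called receptors and co-receptors all lie above 0, and the SMAD genes lie near 0. The lists were chosen with earlier results of these data known.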

How the data were processed

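The deposited table holds estimated counts per gene for 8 samples, made by the authors. The submitters' processing notes name cutadapt, STAR, RSEM, DESeq2 and hg38, without roles or versions; the annotation release and strand setting are not given in the sources used here. All value columns were matched to samples by their titles.

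Counts were rounded, filtered with filterByExpr in edgeR 4.0.16 (R 4.3.3; 14785 of 58870 genes kept) and TMM-scaled. ADRA2A was compared with empty vector by edgeR's quasi-likelihood test, with the group as single term and Benjamini-Hochberg adjustment over all genes at 0.05. The standard error is the absolute log2 fold change divided by the square root of F. TPM used the union of exons of each gene in GENCODE 44, matched by Ensembl identifier (99.4% matched). Promoter windows and their motif matches come from RefSeq on GRCh38.p14. Neighbours are the 10 tested genes on either side.

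The members and lists were chosen with earlier results of these data known. Named were all members, the 3 called genes with the smallest p in each list, every tested SMAD gene and the 5 genes most like INHBA; any further gene was picked with its values in view. Alternatives were DESeq2 1.42.0, RLE or upper quartile factors, limma 3.58.1 voom, other count filters, a replicate block and leaving out each library. The edgeR step was tested on simulated data.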

Additional observations from a re-analysis of the deposited data

Results flagged for a closer look

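For 46 genes, both groups of 4 libraries were checked, 92 groups in all. By a gap test at the 95% level, 5 values stood apart from the other 3 of their group. Chance passes this test in about 1 of 20 groups, so the number flagged is about what chance gives. In 3 of the 5 the library was ADRA2A replicate 3, the highest of its group. FSTL3 had 14.3 CPM there against 10.8 in the next library, BMP2 2.23 against 1.91 CPM and BMP3 2.92 against 2.21 CPM. LINC03061 was lowest in ADRA2A replicate 2, with 70.7 against 80.4 CPM. PECAM1 was highest in empty-vector replicate 2, with 1.22 against 0.644 CPM.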

How the results depend on the processing

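Over 15 alternatives the number of genes called lay within 1.5 times of 6314, from 5703 to 6042 when 1 library was left out. Of the 9 members other than INHBA 5 were called, and 5 or 6 when 1 library was left out. With a mean of at least 50 counts 3 were called, because FST and BMP2 were then not tested. The sixth was TGFB3, which also passed with upper quartile factors (adjusted p = 0.0374 for the log2 fold change of TGFB3). The genes called over all genes numbered 6400 with a replicate block, under which the same 5 members were called; the correlation of same-numbered libraries lay between -0.04 and 0.07, and 1 of 4 empty-vector libraries correlated best with its own number, so the numbers did not pair them. Pathway genes called were 37, and 35 to 39 without 1 library. The log2 fold change of SMAD6 did not pass with DESeq2 (adjusted p = 0.0745), limma voom (0.0518), no filter (0.0756), the replicate block (0.0539) or when each of 5 libraries was left out (0.0801 to 0.172). The cause was not tested. With the longest transcript as gene length 13 of the 20 group means of TPM moved by more than 1 SD. Depth limits FST, and in part INHBA and BMP2, in the ADRA2A cells.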
